A study of Populus tremula x Populus alba with 6 samples.

Results

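The genes described here are 39 poplar genes of secondary wall formation, named by a fixed list of gene identifiers. The list holds 23 genes of the monolignol pathway, 5 secondary wall cellulose synthases, 2 KOR-type cellulases, 5 xylan glycosyltransferases and 4 MYB46/MYB83-type transcription factors. Peaks were taken as theirs when the deposited annotation assigned the peak to the gene. The hybrid has a chromosome set, or subgenome, from each parent species. The rule gave 17 of the 18975 P. alba peaks and 13 of the 17040 P. tremula peaks, and 16 of the 39 genes had a peak in at least 1 list. Gene names were not used here, so a role is stated at the level of these groups.

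The data are chromatin immunoprecipitation sequencing (ChIP-seq) of PtrbHLH011, a basic helix-loop-helix factor, in leaf mesophyll protoplasts of Populus tremula x Populus alba. All 6 libraries came from cells that transiently expressed the factor with a 10xMyc tag, 3 precipitated with anti-Myc antibody and 3 as input with no antibody, each group being biological replicates 1 to 3. The promoter that drove the transgene is not given in the sources used here, no library of cells without the tagged factor was analysed, and protoplasts are leaf cells stripped of their walls rather than wood-forming cells. The peaks are tied to no single library, so no value below has a spread between replicates, and none was tested.

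The secondary wall is laid down inside the primary wall of water-conducting and fibre cells and consists of cellulose, xylan and lignin. Monolignols, the building blocks of lignin, are made from phenylalanine by a chain of enzymes. Cellulose is spun at the plasma membrane by complexes of cellulose synthases, assisted by the membrane-bound KORRIGAN endoglucanase, and xylan chains are built in the Golgi by glycosyltransferases. In Arabidopsis, MYB46 and MYB83 are master switches that turn on the genes of all 3 polymers, and basic helix-loop-helix factors as a class bind E-box elements in DNA.

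Peaks at these genes were about as frequent as over all gene identifiers. On P. alba 14 of the 39 genes (35.9%) had a peak, against 32.7% of 39476 identifier numbers on the 19 chromosomes. On P. tremula 12 genes (30.8%) had one, against 30.5%. Both lists held a peak for 10 genes (25.6%, against 27.0%), and at least 1 list for 16 (41.0%, against 36.3%). Identifiers run in steps of 100, and this background counts each step up to the highest one with a peak on each chromosome. It includes numbers that may belong to no gene and leaves out any gene past that highest one. The share of genes is therefore only approximated. The members' shares stood near this background.

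The promoter class of the deposited annotation reaches 3 kb to either side of the gene start. A promoter-class peak was present at 12 of the 39 genes on P. alba (30.8%, against 23.5% of identifier numbers), at 9 on P. tremula (23.1%, against 21.5%) and in both lists at 7 (17.9%, against 19.1%). Of the peaks themselves, 14 of 17 on P. alba and 10 of 13 on P. tremula were in this class, against 60.6% and 60.9% of all peaks. The summits of most of them lay inside the gene. Among all the members' peaks, 4 in each list had a summit upstream of the start (23.5% and 30.8%, against 40.5% and 41.0% of all peaks). These include a peak of Potri.009G095800 that the annotation calls distal intergenic, outside the promoter class.

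**Figure D1:**
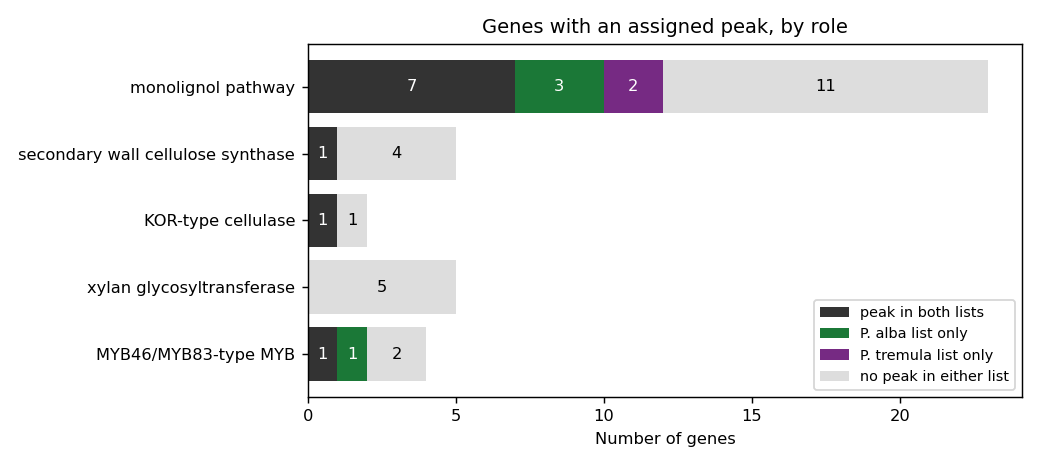
Number of genes (horizontal axis) in each role group with a peak in both lists, in the P. alba list only, in the P. tremula list only or in neither. The monolignol pathway had 12 of 23 genes with a peak in at least 1 list and the xylan glycosyltransferases 0 of 5, where 36.3% of all identifier numbers had one; the groups were not tested against each other.

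A peak was assigned in at least 1 list to 2 of the 4 MYB46/MYB83-type genes, against 36.3% of identifier numbers. With 4 genes, each gene moves such a share strongly, and the difference was not tested. At Potri.001G267300, on the minus strand of chromosome 1, a peak lay upstream of the gene in both lists, with the summit 1732 bp from the start on P. alba (27466251 to 27466364) and 1699 bp on P. tremula (27467264 to 27467347). Both summits held 6 reads. The fold, which is the enrichment over the caller's local background, was 3.52 on P. alba (q = 0.0365) and 2.94 on P. tremula (q = 0.148). The local background was 0.989 reads in the first and 1.38 reads in the second, so that the same summit height passed a q of 0.05 in 1 list and not in the other.

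At Potri.001G258700, the other MYB gene with a peak, the summit lay inside the gene, 1464 bp from the start and 59.4% of the way along it, on P. alba (chromosome 1, 26726075 to 26726254). It held 6 reads with a fold of 3.52 (q = 0.0365). The P. tremula list had no summit in the 47.7 kb between the nearest genes with peaks on either side, Potri.001G258600 and Potri.001G259100. The remaining MYB genes, Potri.009G061500 and Potri.009G053900, had no assigned peak. Around Potri.009G061500 no summit was called between the flanking peak-bearing genes, 14.2 kb apart on P. alba and 14.3 kb on P. tremula. Around Potri.009G053900 the called summits lay 337 and 1390 bp from flanking genes that are 43.7 kb apart on P. alba. They were assigned to those genes, which follows from taking the nearest genes with a peak as flanks.

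Among the 23 monolignol genes, 10 had a peak on P. alba (43.5%, against 32.7% of identifier numbers), 9 on P. tremula (39.1%, against 30.5%) and 7 in both lists (30.4%, against 27.0%). With 23 genes, each gene moves such a share by several percentage points, and no group was tested. Their most enriched peaks fell on adjacent genes of chromosome 10, a different one in each list. On P. alba the peak at Potri.010G224100 (20775336 to 20775640) held 8 reads with a fold of 4.18 (q = 0.00269), the highest fold of any of the 39 genes. On P. tremula the peak at Potri.010G224200 (20777167 to 20777500) held 9 reads with a fold of 3.83 (q = 0.00558). Both lay inside the gene at nearly the same relative place, at 56.7% of the length of the first gene and 56.6% of the second, and they were the longest of the members' peaks, at 305 and 334 bp.

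Neither of these adjacent genes had a peak in the other list. On P. alba no summit was called in the 9.1 kb between Potri.010G224100 and Potri.010G224300, the stretch that holds the identifier Potri.010G224200. On P. tremula 1 summit of 6 reads lay in the 18.4 kb before Potri.010G224200, 3953 bp past the end of Potri.010G223900 and 14462 bp before Potri.010G224200, and was assigned to the former. No sequence was read, so how alike these adjacent genes are is not known here. The sources used here also do not give how reads that match several places were handled. Whether either peak belongs to the adjacent gene was not tested. Even this strongest peak was modest within its list: 17.6% of P. alba peaks had a fold as high or higher, and 31.5% of P. tremula peaks had one at or above that of Potri.010G224200.

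Upstream peaks were assigned to 3 monolignol genes. Potri.019G130700, on the minus strand of chromosome 19, had a summit 1196 bp upstream of its start on P. alba (15622220 to 15622347; 6 reads, fold 3.52, q = 0.0365). Its P. tremula partner was 1229 bp upstream (15619924 to 15620051; 5 reads, fold 3.02, q = 0.148). The exact Poisson 95% interval of 5 reads runs from 1.62 to 11.7 reads and that of 6 reads from 2.20 to 13.1. Each interval describes a count alone. The lists were deposited for the same series of libraries and were not taken as independent. The intervals therefore do not measure the error of the difference of 1 read, which was not tested.

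Potri.009G095800, on chromosome 9, had the most distant upstream peak, which the deposited annotation calls distal intergenic. Its summit stood 4789 bp from the start on P. alba (8631634 to 8631738) and 4804 bp on P. tremula (8630615 to 8630719). It held 6 reads in each, with folds of 3.52 (q = 0.0365) and 3.53 (q = 0.0377). This was the one monolignol peak at q under 0.05 in both lists. A second P. alba peak of the same gene lay nearer, 2688 bp upstream (8633730 to 8633865), with 5 reads and a fold of 3.02 (q = 0.143), and had no partner.

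Potri.006G033300, on chromosome 6, had the summit nearest to a start of all 39 genes. It lay 402 bp upstream on P. tremula (2228596 to 2228694) and held 5 reads with a fold of 3.02 (q = 0.148). A further summit of 6 reads (2225526 to 2225641, fold 3.53, q = 0.0377) lay inside the same gene on P. tremula but was assigned to its neighbour Potri.006G033200. The matching summit on P. alba, also 6 reads (2225305 to 2225420, fold 3.52, q = 0.0365), stood 870 bp past the end of that neighbour, against 864 bp on P. tremula. The P. alba list assigned no peak to Potri.006G033300, whose position on that subgenome is not in the tables, so whether the P. alba summit lies inside it was not measured.

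The other monolignol genes with peaks had them inside the gene or past its end, none at q under 0.05. Potri.003G059200 on chromosome 3 had a summit 2201 bp from the start on P. alba (8677388 to 8677540) and 2207 bp on P. tremula (8676093 to 8676194), each with 6 reads, at folds of 3.25 (q = 0.0585) and 3.26 (q = 0.0610). Potri.001G175000 on chromosome 1 had summits of 5 reads at 425 and 1431 bp on P. alba (14812788 to 14812865 and 14813741 to 14813834), of which the latter recurred at 1428 bp on P. tremula (14817293 to 14817447).

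Potri.003G181400 on chromosome 3 had a summit of 5 reads at exactly 1233 bp from the start in each list (18803805 to 18803910 on P. alba, 18800441 to 18800546 on P. tremula). Potri.001G304800 on chromosome 1 had one of 5 reads at 715 bp on P. alba (30712079 to 30712246) and 698 bp on P. tremula (30712240 to 30712407). These peaks of 5 reads, from Potri.001G175000 on, had folds of 3.01 or 3.02 and q values of 0.143 or 0.148, the least significant of both lists' members.

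Unpaired P. alba peaks of the same weakness lay in Potri.003G183900 (chromosome 3, 18976039 to 18976127, 1188 bp from the start, 5 reads) and in Potri.005G117500 (chromosome 5, 9058371 to 9058483, 2555 bp from the start, 6 reads over a background of 1.39). Their folds were 3.02 and 2.93. On P. tremula no summit was called between the peak-bearing genes that flank either of them, 54.0 and 58.5 kb apart. The last monolignol gene, Potri.015G003100 on chromosome 15, was assigned a peak of 5 reads in both lists (232691 to 232829 on P. alba, 233029 to 233165 on P. tremula) that lies outside it. The summit was 3223 bp past its end on P. alba and 3229 bp on P. tremula, and the annotation places it in exon 34 of 38 of the neighbouring gene Potri.015G003000.

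Of the 5 secondary wall cellulose synthases 1 had a peak, in both lists (20.0%, against 27.0% of identifier numbers). In Potri.004G059600, on the minus strand of chromosome 4, it fell in exon 8 of 13, outside the promoter class, with the summit 3326 bp from the start on P. alba (4776646 to 4776773) and 3332 bp on P. tremula (4773629 to 4773712). The P. alba summit held 7 reads with a fold of 4.02 (q = 0.00656), and the P. tremula summit 6 reads with a fold of 3.53 (q = 0.0377). It passed q = 0.05 in both lists. Around Potri.002G257900, Potri.006G181900 and Potri.011G069600 no summit was called between the flanking peak-bearing genes in either list. The remaining cellulose synthase, Potri.018G103900, had 1 P. alba summit of 5 reads in its interval, 46 bp past the flanking gene Potri.018G103500 and assigned to it.

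Of the 2 KOR-type cellulases, Potri.001G078900 carried 2 peaks in each list, all in the first part of the gene on chromosome 1. The stronger had its summit 441 bp past the start on P. alba (6240971 to 6241244) and 460 bp on P. tremula (6241402 to 6241675). It held 7 reads in each, with folds of 4.02 (q = 0.00656) and 3.98 (q = 0.00680). This was the only peak of the 39 genes with a partner and a q at or under 0.01 in both lists, and the only promoter-class one with q at or under 0.05 in both. The weaker lay 1303 bp past the start on P. alba (6240187 to 6240367) and 1377 bp on P. tremula (6240621 to 6240799), with 5 reads in each and a fold of 3.02. Potri.003G151700, the other gene of the group, had no peak, and none was called between its flanking peak-bearing genes, 17.8 kb apart on P. alba and 70.6 kb on P. tremula.

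**Figure D2:**
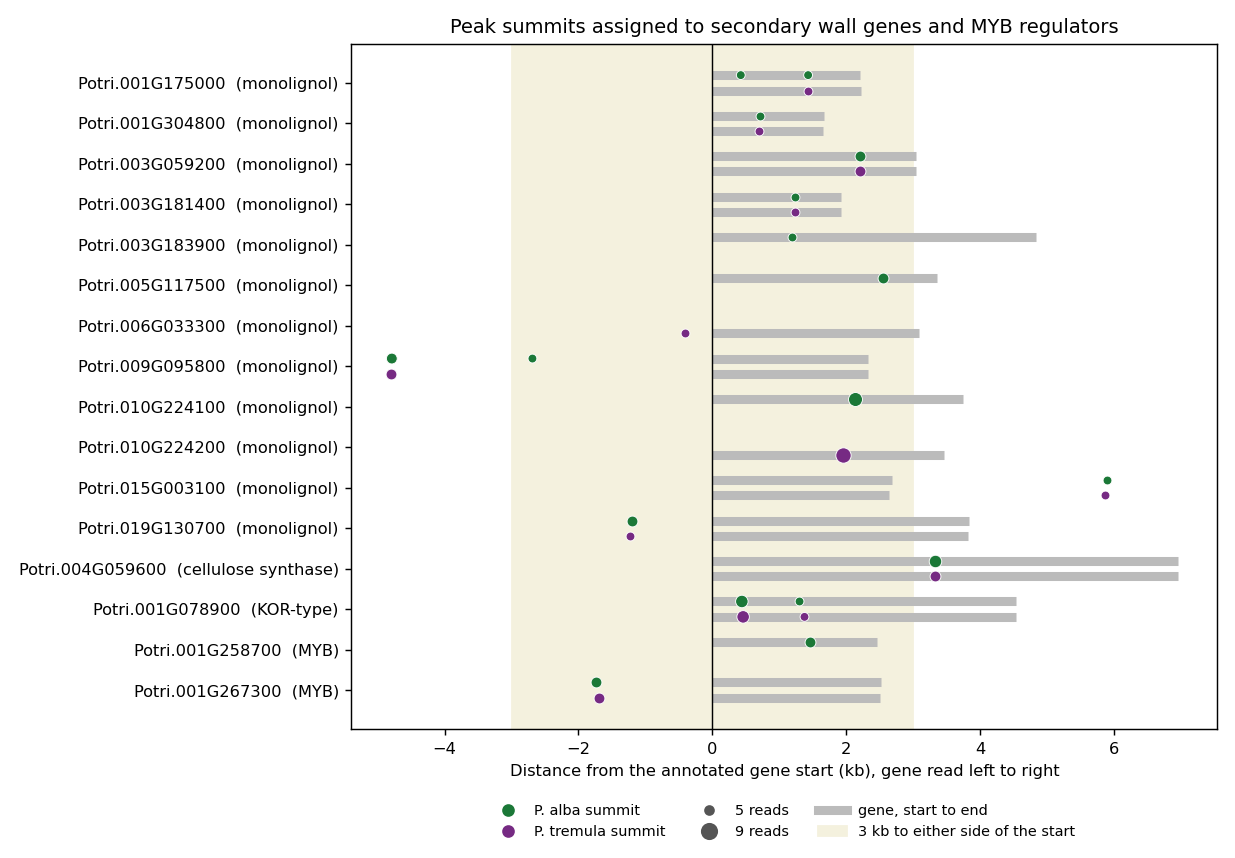
Distance of each summit from the annotated start (horizontal axis, kb) for the 16 genes with a peak, with gene bodies drawn to scale as grey bars, P. alba above P. tremula, and point size giving the reads at the summit. Most summits stand inside the gene, none is within 250 bp of the start, and the paired summits of the lists stand above each other.

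The xylan glycosyltransferases had an assigned peak at 0 of 5 genes in either list, against 36.3% of identifier numbers, a difference of so few genes that was not tested. No summit was called between the genes that flank Potri.006G131000 (27.7 kb on P. alba, 27.6 kb on P. tremula) or Potri.016G086400 (29.9 and 30.0 kb). Potri.001G416800 is the one identifier between its flanks, 16.9 kb apart on P. alba, where a summit of 7 reads lay 1219 bp past the end of Potri.001G416700 and was assigned to that gene. Near Potri.011G132600 and Potri.009G006500 the called summits were likewise assigned to flanking genes. Such an assignment follows from taking the nearest genes with a peak as flanks and is no separate result.

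Deeper peaks assigned to other genes lay in the flanking intervals of 2 monolignol genes, 1 of which had no peak of its own. Potri.001G042900 is the single identifier between Potri.001G042800 and Potri.001G043000, 16.4 kb apart on P. alba. A summit in that stretch held 45 reads on P. alba (3113472 to 3113647, fold 6.16, q = 1.68e-20) and 54 on P. tremula (3114161 to 3114347, fold 9.43, q = 1.49e-34). It was assigned to Potri.001G043000, whose nearer end was 2561 bp away on P. alba and 2572 bp on P. tremula. The position of Potri.001G042900 itself is not in the tables, so its distance from this summit was not measured. In the interval of Potri.003G059200 a summit held 56 reads in each list, with a fold of 6.80 on P. alba (8654726 to 8654947, q = 2.07e-27) and 6.30 on P. tremula (8653452 to 8653673, q = 1.45e-25). The annotation calls it distal intergenic and assigns it to Potri.003G058900, whose end was 4467 bp away on P. alba and 4469 bp on P. tremula.

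In all, 23 of the 39 genes had no assigned peak. For 8 of these 23, neither list had a summit anywhere between the flanking peak-bearing genes. They were Potri.016G091100 of the monolignol group, 3 cellulose synthases, 1 KOR-type cellulase, 2 xylan glycosyltransferases and Potri.009G061500 of the MYB group. For the other 15 at least 1 summit stood in the interval, by definition assigned to another gene. The same shares over all identifiers with no peak were not computed, so neither count is read as a trait of these genes. For members with no peak in a list, the intervals ranged from 5.8 to 129.2 kb on P. alba. On P. tremula they ranged from 11.4 to 189.7 kb. A gene with no peak may carry signal below the caller's threshold, since the lists hold no summit of fewer than 5 reads.

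The members' peaks were shallow even for these lists. Their summits held 5 to 8 reads on P. alba and 5 to 9 on P. tremula, with medians of 6 and 5, against 7 in each whole list. A summit of 5 reads, the lowest height in the lists, was found at 8 of 17 P. alba peaks (47.1%, against 17.3% of the list) and 7 of 13 P. tremula peaks (53.8%, against 16.3%). No member peak reached 10 reads, whereas 21.5% and 22.3% of all peaks did. The median fold was 3.02 in each list's member peaks, with ranges of 2.93 to 4.18 and 2.94 to 3.98, against whole-list medians of 3.52 and 3.53. The list median was reached or passed by 7 of 17 P. alba peaks (41.2%, against 60.5% of the list) and 4 of 13 P. tremula peaks (30.8%, against 59.1%).

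**Figure D3:**
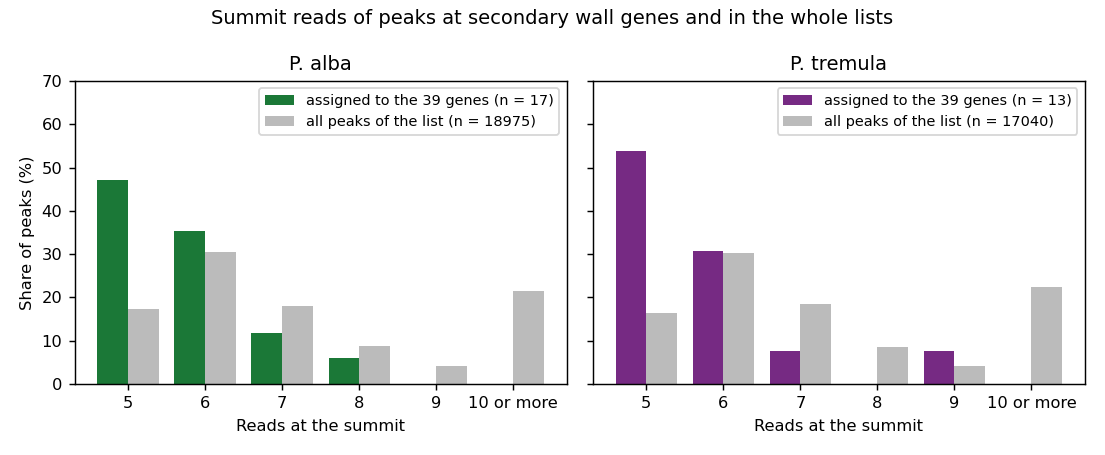
Share of peaks (vertical axis, %) by reads at the summit, for peaks assigned to the 39 genes (coloured) and all peaks of the list (grey). Summits of 5 reads made up 47.1% and 53.8% of the coloured bars against 17.3% and 16.3% of the grey ones, and no coloured bar stands at 10 or more reads.

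Few of these peaks passed a false discovery threshold. At q at or under 0.05 stood 7 of the 17 P. alba peaks (41.2%, against 72.6% of the list) and 4 of the 13 P. tremula peaks (30.8%, against 72.9%). In genes this left 7 of 39 on P. alba (17.9%, against 25.2% of identifier numbers), 4 on P. tremula (10.3%, against 23.3%) and 3 in both lists (7.69%, against 20.0%). Those 3 were the monolignol gene Potri.009G095800, the cellulose synthase Potri.004G059600 and the KOR-type cellulase Potri.001G078900. At q at or under 0.01 there were 3 peaks on P. alba (17.6%, against 39.8%) and 2 on P. tremula (15.4%, against 40.1%).

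**Figure D4:**
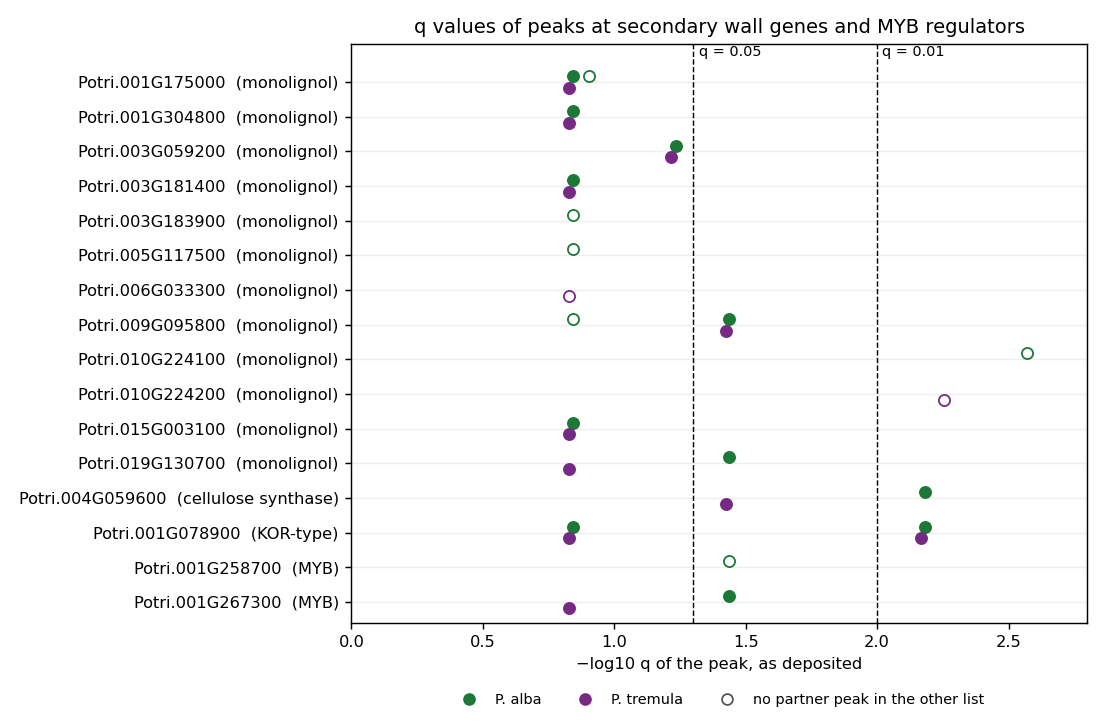
Deposited −log10 q (horizontal axis) of each peak at the 16 genes, P. alba in green and P. tremula in purple, with dashed lines at q of 0.05 and 0.01; open points have no partner in the other list, and peaks of 1 gene with equal q are set side by side. Of the points, 7 green and 4 purple ones lie to the right of the 0.05 line.

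The local background was at its floor for most of these peaks, so the fold there follows from the summit count alone. It stood within 0.01 reads of the floor at 14 of 17 P. alba peaks (82.4%, against 58.9%) and 9 of 13 P. tremula peaks (69.2%, against 56.7%). Folds of 3.02, 3.52 and 4.02 on P. alba are the values that 5, 6 and 7 reads give over this floor. The deepest P. alba summit of the group, of 8 reads, stood over a background of 1.15 reads, above the floor. Its interval runs from 3.45 to 15.8 reads, and that of 5 reads from 1.62 to 11.7. Such intervals do not test a difference between peaks. The order of the members by fold was not tested and is not read as a ranking.

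Inside-gene summits made up a larger share here than in the whole lists. They were found at 12 of 17 P. alba peaks (70.6%, against 37.9%) and 8 of 13 P. tremula peaks (61.5%, against 37.5%). Upstream summits made up 23.5% and 30.8%, against 40.5% and 41.0%. None was within 250 bp of a start, where 11.8% and 11.9% of all summits stand. With 17 and 13 peaks these shares move by several percentage points with each peak, and the difference was not tested.

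Most of the members' peaks had a partner in the other list. Of the members' peaks, 11 could be paired by gene and by distance from the start within 100 bp, which is 64.7% of those on P. alba (against 66.3% of the list) and 84.6% on P. tremula (against 73.8%). The largest gap between paired summits was 74 bp. Summit heights were identical in 9 of the 11 pairs (81.8%, against 76.6% of all 12576 pairs). The paired summits held 5 to 7 reads, a range so narrow that equal heights do not show whether the lists are independent. Both lists were deposited for the same series of libraries, so a peak present in both counts as 1 observation. The P. alba fold was 1.00 to 1.20 times the P. tremula fold in the pairs. Over all chromosomal identifiers, 12923 had a peak on P. alba, 12033 on P. tremula and 10643 in both. Among the members, peaks in the P. alba list alone were found at 4 genes and in the P. tremula list alone at 2. Both lists thus held a peak for 10 of the 16 genes with a peak (62.5%, against 74.4% of all chromosomal genes with one), and without values per library these differences could not be set against replicate error.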

How the data were processed

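Values came from 2 peak tables, 1 for each subgenome, that the authors deposited for the whole series. The submitters' processing notes list the aligner BWA at version 0.7.17.2, the peak caller MACS2 at version 2.2.7.1 and, for gene assignment, ChIPseeker at version 1.18.0. Sources used here give no genome build, annotation release, calling option, control or pooling step. The columns used are, per the file headers, the pileup (a signal, the reads covering the summit), the fold enrichment (a ratio to local background), the −log10 q value and the assigned gene of every peak. Positions count from 1, as in the tables, and cannot be exchanged between subgenomes. Each peak stands in 2 rows and was counted once. Of the peak numbers up to 19162 and 17195, 187 and 155 belong to no peak analysed here.

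The identifiers and lists were chosen with earlier results of these data known. All 39 genes were named by rule. Role groups follow the order of the list and general knowledge of poplar identifiers, since the files annotate none. A planned comparison of duplicate gene copies and a list of further pathway genes were not made, for want of an annotation, and no sequence was read. Summit distances were computed from the tables' gene coordinates, and the background as (pileup + 1) / fold − 1. Flanking genes are the nearest identifiers with a peak on either side. A summit between the flanks of a gene with no peak is therefore assigned to a flank, apart from identifiers out of chromosomal order. Identifiers followed chromosomal order at 99.97% and 99.96% of neighbouring genes. Intervals of summit reads are exact Poisson 95% intervals and cover counting error only. Library depth is unknown. The pairing was tested on simulated data with known moves of at most 50 bp, inside the 100 bp tolerance. All other simulated peaks were set far away, so false pairing and larger gaps were not tested. Python 3.11.15, pandas 2.3.3, numpy 2.4.6, scipy 1.17.1 and matplotlib 3.10.9 were used.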

Additional observations from a re-analysis of the deposited data

How the results depend on the processing

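Of 65 alternative values, 24 stayed within 1.5 times the reported count and 41 moved. Those that stayed include the values for the xylan glycosyltransferases, which could not move, since a stricter filter on 0 peaks leaves 0. With q at or under 0.05, and equally with fold at or above the list median, members with a peak numbered 7 on P. alba, 4 on P. tremula and 3 in both lists, members with a promoter-class peak 5, 2 and 1, member peaks 7 and 4, and pairs 3. Monolignol genes with a peak then numbered 3 and 2, and MYB genes 0 on P. tremula. The same member peaks passed both cuts, since 6 reads over the background floor gave the list median fold and a q under 0.05. The equal counts are therefore no separate check. With q at or under 0.01, members with a peak numbered 3, 2 and 1, members with a promoter-class peak 2, 2 and 1, member peaks 3 and 2, and pairs 1. Monolignol genes were then 1 in each list, cellulose synthases 0 on P. tremula and MYB genes 0 in each. With summits within 1 kb of the start, members with a promoter peak numbered 3, 3 and 2. With 2 kb they numbered 8, 8 and 6, and pairs within 50 and 500 bp 10 and 11. Counts fell because fewer peaks were kept. No paired analysis was possible because peaks are not tied to libraries. Leaving out replicates and fitting ChIP against input were likewise not run. The comparison of duplicate copies was not run. Summits of 5 to 9 reads limit the precision of the members' own peaks.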
